A study of Mus musculus with 7 samples.

Results

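Secondary and tertiary neutrophil granule genes were followed across 7 single-cell libraries of mouse liver, from a study of a hepatoblastoma-like model. The set held 9 genes listed by name, Camp, Ngp, Ltf, Lcn2, Fcnb, Chil3, Cd177, Mmp8 and Mmp9, out of 32285 genes in each count matrix. The rule that names them uses no measured value, though the list was drawn up with earlier results of these data known. All 9 were present in all 7 matrices. The libraries, NEJ634, NEJ638, NEJ709, NEJ723, NEJ654, NEJ677 and NEJ687, carried the same label, liver of the murine model, and the labels put them in 0 groups, so each library was described on its own. In the model, albumin-driven Cre switches on a human MYC transgene in liver cells of C57BL/6J mice (Alb-Cre;CAG-Myc, called ABC-Myc). The study's text speaks of NEJ634, NEJ687, NEJ709 and NEJ723 as tumors and also of healthy control mice. It gives no library name to the controls. The tumors and healthy livers that it counts for its single-cell data together match the number of libraries. By that count NEJ638, NEJ654 and NEJ677 would be the healthy livers, although their labels name the model. Age was not given in the sources used here, the description of NEJ709 names NEJ634, and no comparison between groups was made. Albumin-driven Cre is known to act in the hepatocyte lineage, and whether the granulocytes carried the transgene was not tested. The methods describe a collagenase digest and name no sort.

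Neutrophils pack their proteins into granules in the order in which they make them. Primary (azurophil) granules fill at the promyelocyte stage with proteases such as neutrophil elastase, secondary (specific) granules fill at the myelocyte and metamyelocyte stage with antimicrobial and iron-binding proteins, and tertiary (gelatinase) granules fill last, in band cells. The mRNAs of primary and secondary granule proteins are largely lost as the cell matures, while the proteins stay. Transcript levels thus mark the stage of a granulocyte and not its content of granule protein. The mouse liver makes blood cells before birth and can do so again in disease.

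Camp encodes the mouse cathelicidin, an antimicrobial peptide precursor, and lies at chr9:109847379-109849617 on the minus strand in GENCODE M21, an annotation of the mouse build GRCm38. Ngp, a cystatin-like neutrophilic granule protein, lies nearby at chr9:110419747-110423012 on the plus strand, and Ltf, the iron-binding lactoferrin, at chr9:111019271-111042767 on the plus strand. Lcn2, or lipocalin, takes up bacterial siderophores and lies at chr2:32384633-32388252 on the minus strand. Fcnb encodes ficolin B, a carbohydrate-binding lectin of the complement system, at chr2:28076378-28084885 on the minus strand. Chil3 encodes a chitinase-like lectin that macrophages can also make and lies at chr3:106147554-106167564 on the minus strand. Cd177 encodes a surface glycoprotein stored on granule membranes, at chr7:24743983-24760311 on the minus strand. Mmp8, neutrophil collagenase, lies at chr9:7558456-7568485 on the plus strand, and Mmp9, gelatinase B and the defining protein of tertiary granules, at chr2:164940780-164955850 on the plus strand. Chil3 has a close paralog, Chil4, and reads could be shared between them. Chil4 took 10 unique molecular identifiers (UMIs, each counted once per captured molecule) against 49174 of Chil3 in the immature neutrophil-like cells of all libraries.

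C/EBP factors, among them the granulocyte factor C/EBP epsilon, are known to bind DNA of the form TTGCNNAA, so the promoters of the members were searched for these letters on both strands (TTNNGCAA on the reverse). RefSeq windows of 250 bases before the start of a gene on build GRCm38.p6 were read, and 8 of the 9 members had an entry, all but Mmp9. Of these, 5 held a match, against 3142 of 32851 promoters in the whole table, or 9.56%. The matches are shown because the members differ in them, and each line gives 30 bases read 5′ to 3′ on the strand of the gene, with the match in capitals.
Ngp at chr9:110419659-110419688: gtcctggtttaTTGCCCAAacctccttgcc
Ngp at chr9:110419778-110419807: tttatgtcaccggcagttcTTGGGCAAggc
Ltf at chr9:111019206-111019235: aggcaggcctaTTGGGCAAtagggtggggc
Lcn2 at chr2:32387937-32387966: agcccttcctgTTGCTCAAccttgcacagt
Fcnb at chr2:28085095-28085124: caaggcaggccTTTTGCAAacagaggtgcc
Fcnb at chr2:28084983-28085012: ttttaggtctcTTGTGCAAccagaggcctc
Mmp8 at chr9:7558399-7558428: ttaggcagaagTTGCTCAAgatgtagcttt

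Counted from the RefSeq start of each gene, the matches began 138 and 11 bases before Ngp, 75 before Ltf, 216 before Lcn2, 235 and 123 before Fcnb and 19 before Mmp8. The window nearer to Ngp and that of Lcn2 lie within the gene in GENCODE M21, whose starts are upstream of those of RefSeq, and the other 5 lie before the GENCODE start. Camp, Chil3 and Cd177 held 0 matches in their windows. Cebpe, which encodes C/EBP epsilon, was among the genes whose pattern over cell classes lay nearest to that of Cd177. A link between matches and patterns was not tested. A match describes letters and is not a site of binding.

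The libraries held 40214395 to 132485391 UMIs, 547476648 in all. After barcodes with a cell were called, doublets and barcodes called in more than 1 library were removed, 71403 cells remained, 6583 to 16750 per library, with a median of 2100 (NEJ654) to 4633 (NEJ687) UMIs per cell. Kept barcodes that were also kept in another library numbered 141 to 341 per library, 2032 in all. Levels over all analysed cells are given below with and without them, and values of cell classes only without them. NEJ709 stood apart, since 94.2% of its cells fell in clusters that no marker list named, against 16.5% to 52.2% in the other libraries, and NEJ709 and NEJ634 had the low-UMI barcodes richest in the members. Values are UMIs of a gene per 1000000 UMIs (CPM) over all cells of a class in 1 library, with exact 95% Poisson intervals. Shares carry exact 95% Clopper-Pearson intervals, and both kinds cover counting error only, since each library is 1 sample and the labels give 0 groups.

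Granulocyte stages were found by clustering the cells without the 9 members and by naming clusters from marker genes that are not members. Promyelocyte-like cells were named from Mpo, Elane, Prtn3, Ctsg, Ms4a3 and Prss57, immature neutrophil-like cells from 12 genes such as Ly6g, Itgb2l, Ifitm6 and Ceacam10, and mature neutrophil-like cells from 13 genes such as Cxcr2, Il1b, Retnlg and Csf3r. There were 1017 promyelocyte-like, 1133 immature and 2199 mature cells. Values for 5 libraries follow the order NEJ634, NEJ638, NEJ709, NEJ723 and NEJ687 unless others are named, and in this order there were 102, 34, 103, 331 and 561 immature cells, with 0 found in NEJ654 and 2 in NEJ677. Promyelocyte-like cells numbered 706, 38, 140 and 133 in NEJ634, NEJ709, NEJ723 and NEJ687, and 0 in the other libraries. Mature cells were found in all 7 libraries, from 103 in NEJ709 to 688 in NEJ687. In NEJ687, the library with the most stage cells, the 12 immature markers summed to 9860 CPM in immature and 3951 CPM in mature cells, and the 13 mature markers to 12654 and 51656 CPM. Markers of the hepatocyte lineage (8 of 8 had UMIs) summed to 227 and 576 CPM in these classes, against 6529 CPM in the low-UMI barcodes of the same library, and their part in the results was not tested.

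Over all analysed cells the 9 genes together took 13616 CPM in NEJ709, 10554 in NEJ687, 7074 in NEJ634, 5541 in NEJ723, 724 in NEJ638, with NEJ654 at 73.9 and NEJ677 at 72.5. The libraries thus spanned from less than 1 in 10000 UMIs to more than 1 in 100, and the intervals of NEJ654 (70.2 to 77.7) and NEJ677 (69.3 to 75.8) overlapped, while those of all other neighbours in this order did not. Camp ranged from 0.0980 CPM in NEJ654 through a median of 2147 CPM to 6211 CPM in NEJ709, whereas Mmp9 ranged from 21.6 CPM in NEJ638 to 142 CPM in NEJ709. In a level over all cells, fewer cells of a type and less RNA per cell cannot be told apart.

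The same genes were read in barcodes too poor in UMIs to be called cells, ranked 45000 to 90000 by UMI count, which sample RNA free in the suspension. There the members summed to 11267 CPM in NEJ709, 5094 in NEJ634, 2473 in NEJ687, 933 in NEJ723, 95.4 in NEJ638, 24.4 in NEJ677 and 21.9 in NEJ654. In the sum of the members, analysed cells were above the low-UMI level in 7 of 7 libraries, by 1.21-fold in NEJ709 and 1.39-fold in NEJ634, and by 2.97-fold to 7.59-fold in the other 5. For single members the count of libraries was 7 for Lcn2 and Chil3 and 6 for Mmp8. It was 5 for Camp, Ngp, Cd177 and Mmp9, 4 for Fcnb and 3 for Ltf. No share of all genes is given beside these counts. In NEJ634 the low-UMI barcodes of these ranks held 210 to 952 UMIs, so that some may have been cells. With barcodes that were cells of another library kept in, the low-UMI level was 757 CPM in NEJ654 and 879 CPM in NEJ677, above the level of the cells, and 5 of 7 libraries remained above it. Against barcodes of 10 to 99 UMIs, which held the members at 8330 CPM in NEJ723, 1610 in NEJ638, 191 in NEJ677 and 126 in NEJ654, these 4 libraries were not above the level and 3 of 7 remained.

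**Figure D1:**
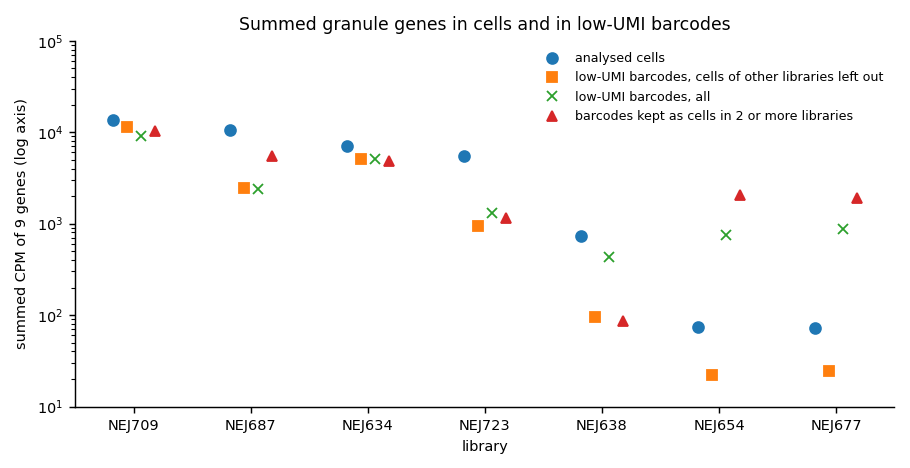
Summed CPM of the 9 granule genes in each library on a log axis, ordered by the level in analysed cells (circles), with low-UMI barcodes without cells of other libraries (squares), all low-UMI barcodes (crosses) and barcodes kept as cells in more than 1 library (triangles). Cells lay above the low-UMI barcodes shown as squares in all 7 libraries, closely in NEJ709 (13616 against 11267 CPM) and NEJ634 (7074 against 5094 CPM), but above barcodes of 10 to 99 UMIs, which are not drawn, in 3 of 7.

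Barcodes kept in more than 1 library bore on the lowest levels. With them, the members summed to 179 CPM in NEJ654 and 149 CPM in NEJ677, against 73.9 and 72.5 CPM without them, and Camp was at 45.4 and 37.3 CPM in place of 0.0980 and 5.39 CPM. In the other 5 libraries the sums with them were 7029, 710, 13475, 5176 and 10394 CPM in NEJ634, NEJ638, NEJ709, NEJ723 and NEJ687, each below the sum without them. The largest overlap was 191 barcodes between NEJ654 and NEJ677, 2.44% of the smaller library. The barcodes left out held 2345 member UMIs in NEJ654 and 2267 in NEJ677. Counts of immature cells and stage values of these 2 libraries, low or at 0 for some members, are given only without such barcodes. Whether they would stay so with them is not given here. Of immature cells, 13.7%, 20.6%, 52.4%, 19.6% and 16.8% had a barcode with over 100 UMIs in another library, and counts without them are given below. Of promyelocyte-like cells, 9.63%, 52.6%, 70.0% and 78.2% did in NEJ634, NEJ709, NEJ723 and NEJ687.

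Immature cells gave a larger part of their RNA to the members than any other stage. The 9 genes made up 11.1%, 8.02%, 10.8%, 11.2% and 13.9% of all UMIs of the immature cells. In mature cells they made up 1.17%, 0.344%, 1.18%, 3.39% and 1.39% in the same libraries, and 0.244% in NEJ654 and 0.236% in NEJ677. Every immature class lay above every mature class. Immature cells held 92.8% of all member UMIs of analysed cells in NEJ687, 79.7% in NEJ638 and 77.0% in NEJ723, though only 26.1% in NEJ634 and 19.8% in NEJ709. In the last of these, 78.3% of member UMIs lay in clusters that no marker list named, and in NEJ634 37.1% did. In NEJ654, which had no immature cell, 46.0% of its 1507 member UMIs were in mature cells.

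The unnamed cells with the most member UMIs were 13195 cells, 98.7% of them from NEJ709, at 13264 CPM, and 3292 cells, 97.7% of them from NEJ634, at 13187 CPM. The low-UMI levels of these libraries were 11267 and 5094 CPM. The cells had median counts of 2122 and 2048 UMIs, and no stage was given to them. Apart from members, the leading genes of the former were mt-Nd3, mt-Nd1, Tmcc2, Cstdc5 and S100a8, the first pair mitochondrial. Those of the latter were Ighg2c, Igha, Jchain, Ighg2b and Hist1h2ap. A further 520 unnamed cells, 99.8% of them from NEJ634, had Elane, Mpo and Prtn3 as leading genes with Hamp and Afp of the hepatocyte lineage, and held the members at 9624 CPM and Camp at 5663 CPM. They met the promyelocyte list but also that of the hepatocyte lineage, and are not among the 706 promyelocyte-like cells of NEJ634.

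**Figure D2:**
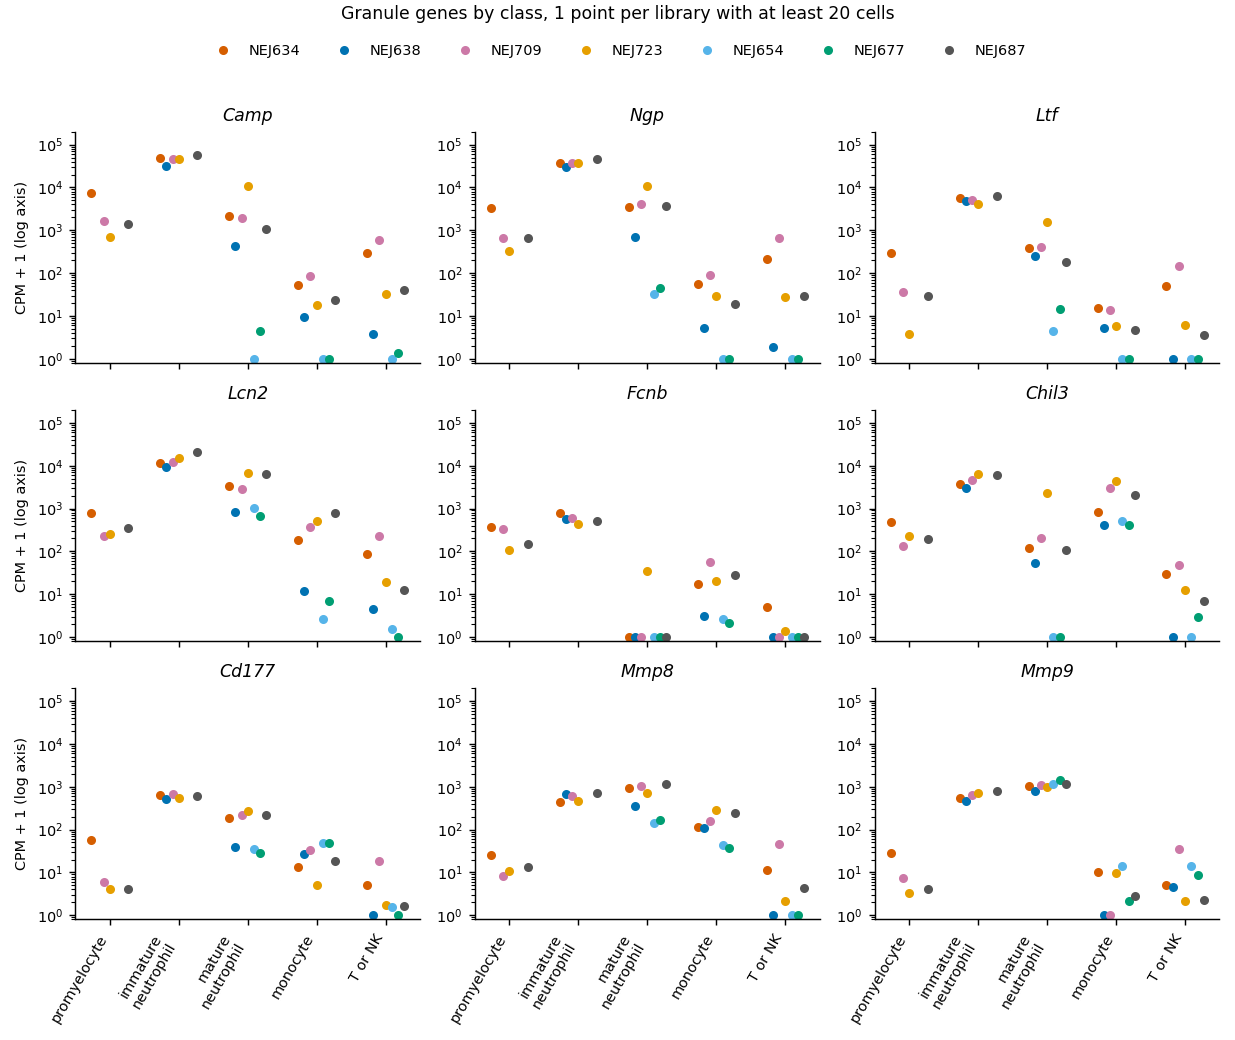
Level of each of the 9 genes as CPM + 1 on a log axis in promyelocyte-like, immature and mature neutrophil-like cells and 2 further classes, with 1 point per library and class of at least 20 cells. Immature cells lay above mature cells in all 5 libraries for 7 genes, Mmp9 lay higher in mature cells over the whole classes, though not with intervals apart against the immature cells with few cell-cycle UMIs, and Chil3 was also high in monocyte-like cells (407 to 4435 CPM).

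Camp and Ngp, a cathelicidin and a cystatin-like granule protein, were higher in immature than in mature cells in all 5 libraries. In immature cells Camp was at 49204, 31376, 46846, 47082 and 57014 CPM. In mature cells of the same libraries it was at 2137, 425, 1905, 10624 and 1095 CPM, and it was at 0 CPM in NEJ654, where 203 mature cells gave no Camp UMI, and at 3.41 CPM in NEJ677. The groups did not overlap, and the ratio of immature to mature cells within a library ran from 4.43 (4.37 to 4.50) in NEJ723 to 73.8 (62.1 to 88.4) in NEJ638, with a median of 24.6. Ngp followed with 38066, 29311, 37082, 37459 and 46818 CPM in immature cells and 3562, 697, 4033, 10773 and 3696 CPM in mature cells of the 5 libraries. Its ratios ran from 3.48 to 42.1 with a median of 10.7. In NEJ654 and NEJ677 mature cells held Ngp at 31.6 and 44.4 CPM.

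A member was counted as higher in a stage where the ratio was at least 2 and the intervals were apart. By this rule Camp, Ngp, Ltf, Lcn2, Fcnb and Chil3 were higher in immature than in mature cells in 5 of 5 libraries, Cd177 in 4, and Mmp8 and Mmp9 in 0, which made 34 of 45 pairs of a member and a library. Of all genes of at least 50 CPM in either stage, 12.9%, 13.9%, 15.4%, 8.04% and 13.3% were higher in immature cells, a smaller share than that of the members in each library. The median log2 ratio of the members was 3.42, 4.30, 3.20, 1.43 and 3.66 in these libraries, where that of all genes tested was −0.36, −0.14, −0.38, −0.28 and −0.30. Without barcodes that had over 100 UMIs in another library the count was 36 of 45.

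The iron-linked members behaved alike in direction but not in size. Ltf was at 5709, 4855, 5073, 4174 and 6261 CPM in immature cells and at 380, 246, 411, 1541 and 178 CPM in mature cells, with ratios of 2.71 to 35.2. Of mature cells, 80.4% (NEJ723) to 98.7% (NEJ638) had no Ltf UMI in the 5 libraries, so that few cells carried the mature level in each. Lcn2 was at 11664, 9332, 12246, 14874 and 20795 CPM in immature cells and kept 3383, 828, 2905, 6685 and 6264 CPM in mature cells, with ratios of 2.22 to 11.3 and a median of 3.45. Mature cells of NEJ654 and NEJ677 still held Lcn2 at 1037 (922 to 1162) and 686 (595 to 788) CPM while Ltf was at 3.52 and 13.7 CPM there. Of the 6 members that were higher in immature cells in all 5 libraries, Lcn2 had the smallest median ratio.

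Fcnb, Chil3 and Cd177 showed 3 further patterns. Fcnb was at 803, 583, 590, 443 and 505 CPM in immature cells, and mature cells gave no Fcnb UMI in 6 of 7 libraries. Only NEJ723 had any, 65 UMIs or 34.2 CPM, where the ratio was 12.9, while immature cells were at least 143-fold, 60.8-fold, 77.5-fold and 249-fold higher in NEJ634, NEJ638, NEJ709 and NEJ687, taking 3 UMIs as the floor of the mature cells of a library. Chil3 was at 3651, 3058, 4657, 6298 and 5939 CPM in immature cells and 116, 51.2, 201, 2332 and 109 CPM in mature cells, with ratios of 2.70 (NEJ723) to 59.8, and gave no UMI in mature cells of NEJ654 and NEJ677. Cd177, the membrane protein, was at 626, 512, 666, 544 and 611 CPM in immature cells, a range narrower than that of its mature levels of 187, 38.4, 218, 273 and 213 CPM, and its ratio in NEJ723 (1.80 to 2.21) fell just short of the rule.

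The metalloproteinases were not higher in immature cells by the rule in any library. Mmp8 was at 452, 686, 611, 468 and 710 CPM in immature cells and at 928, 364, 1046, 703 and 1176 CPM in mature cells. It was lower in immature cells by the rule only in NEJ634, where the ratio was 0.487 (0.428 to 0.554), and in NEJ638 the ratio was 1.88 (1.41 to 2.51), in the opposite direction and short of the rule. Of all genes tested, 32.2%, 22.9%, 31.4%, 24.6% and 29.2% were lower in immature cells, so 1 lower pair of 45 for the members is a smaller share than that background. Mmp9 was at 545, 473, 640, 705 and 786 CPM in immature and at 1018, 793, 1115, 979 and 1133 CPM in mature cells, with ratios of 0.536 to 0.721. Over the whole class Mmp9 was lower in immature cells in every library with its intervals apart, though by less than 2-fold. The intervals were no longer apart in this direction in any library once immature cells with UMIs of cell-cycle genes, described below, were set aside. The other immature cells held Mmp9 at 997, 763, 1159, 1160 and 1139 CPM, with intervals that overlapped those of mature cells in 4 libraries and lay above them in NEJ723. In NEJ654 and NEJ677, where Camp was at or near 0, mature cells held Mmp9 at 1188 (1065 to 1322) and 1413 (1280 to 1556) CPM and Mmp8 at 141 and 167 CPM.

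The levels of mature cells were also set beside the low-UMI barcodes of their library. Ngp, Lcn2, Cd177, Mmp8 and Mmp9 in mature cells were above the low-UMI level, with intervals apart, in 7 of 7 libraries. Camp was above it in NEJ634, NEJ638 and NEJ723 only, at 1095 against 1087 CPM in NEJ687, and below it in NEJ709, at 1905 against 5343 CPM. Ltf was above it in 4 libraries, but at 380 against 328 CPM with overlapping intervals in NEJ634 and at 411 against 561 CPM in NEJ709. Chil3 was above it in NEJ638 and NEJ723, and at 116 against 252, 201 against 577 and 109 against 140 CPM in NEJ634, NEJ709 and NEJ687. Markers of hepatocytes, lymphocytes and endothelial cells stood in mature cells at 9.20% (NEJ687) to 23.3% (NEJ634) of their share in low-UMI barcodes, against 3.79% to 7.23% in immature cells of the 5 libraries. Against barcodes of 10 to 99 UMIs the counts of libraries were 7 for Lcn2, Mmp8 and Mmp9, 5 for Ngp, 4 for Cd177, 3 for Ltf, 2 for Camp, 1 for Chil3 and 0 for Fcnb. The latter barcodes held 158878 UMIs in all in NEJ654 and 104654 in NEJ677, so low levels could not be decided there. No share of all genes above either background in mature cells is given here, so these counts are not read as particular to the members. Outside the stages in NEJ634, Camp was at 4277 CPM in conventional dendritic-like and 4153 CPM in basophil or mast-like cells. Both lay above its 2137 CPM in mature cells of that library. The part of free RNA in the mature levels was not tested beyond these values.

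Immature cells were also the class with the largest share of cells with a Camp UMI at equal depth. Median depth was 7421, 2714, 9574, 6179 and 5422 UMIs in immature cells and 2552, 897, 3145, 2551 and 1922 UMIs in mature cells of the 5 libraries, and each cell was thinned to 500 UMIs, a depth that all of them reached. Camp was then seen in 99%, 100%, 95.1%, 97% and 95.4% of immature cells and in 18.9%, 2.27%, 16.5%, 19.4% and 11.8% of mature cells. Before thinning the shares were 98.0% or more of immature cells and 38.9%, 2.59%, 47.6%, 33.9% and 28.3% of mature cells. T or NK-like cells, which should lack the gene, showed Camp after thinning in 11%, 0.501%, 7.69%, 1.58% and 2.36%, and before thinning in 31.9%, 0.501%, 48.1%, 14.3% and 11.5%, at median depths of 3893, 1646, 7512, 4813 and 3806 UMIs. The mature shares of NEJ634, NEJ638 and NEJ709 had intervals that overlapped this background, and those of NEJ723 and NEJ687 did not. In NEJ654, 0 of 203 mature cells had a Camp UMI, which at 3 counts allows a share of up to 1.48% of cells with a UMI at their median depth of 1320 UMIs and sets no limit on cells that express the gene. Mmp9 was seen after thinning in 31.0% (NEJ723) to 50% (NEJ677) of mature cells over all 7 libraries, and in 49.5% to 83.5% before it, against 1.23% or less of T or NK-like cells after thinning.

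Camp in the mature class sat in few cells. In NEJ723, 53 of 516 mature cells (10.3%) gave at least 1% of their own UMIs to Camp and held 94.1% of the Camp UMIs of the class, which was at 868 CPM without them in place of 10624 CPM. In NEJ634, 9 cells held 72.6% of the Camp UMIs, in NEJ687 12 cells held 52.6%, in NEJ709 2 cells held 64.0%, and in NEJ638 1 cell held 37.6%. These cells were picked by their Camp share, so a fall without them was built in. The class was uneven in that these few cells held 37.6% to 94.1% of its Camp UMIs in the 5 libraries. The share of a cell's UMIs given to the 9 genes had a median of 10.2%, 7.86%, 10.7%, 10.7% and 13.2% in immature cells and of 0.115% (NEJ638) to 0.631% (NEJ723) in mature cells.

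**Figure D3:**
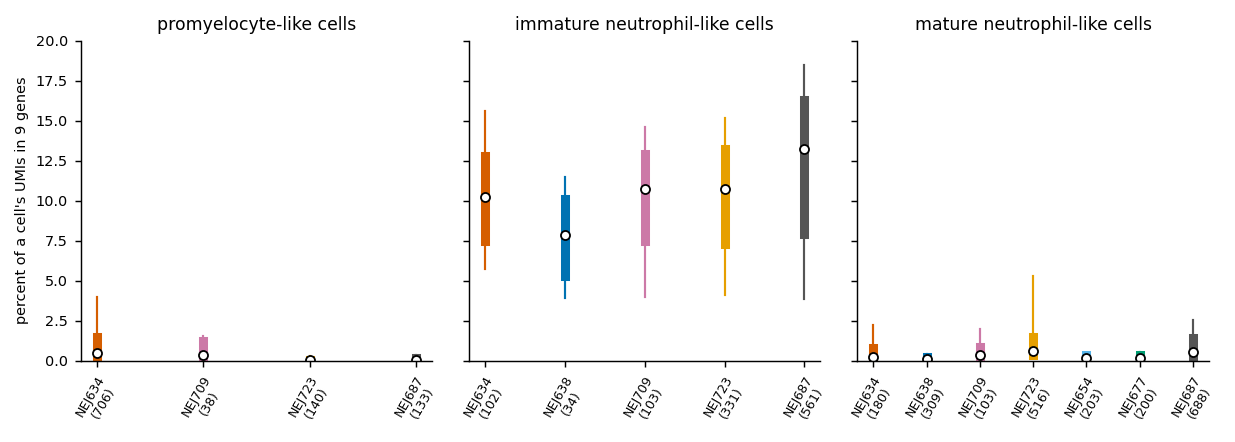
Percent of each cell's UMIs given to the 9 genes, on a linear axis, for promyelocyte-like, immature and mature cells of each library, with the median as a circle, the middle of the cells (25th to 75th percentile) as a thick line and the 10th to 90th percentile as a thin line. Immature cells had medians of 7.86% to 13.2%, and mature cells had medians of 0.115% to 0.631%, with a 90th percentile that reached 5.31% in NEJ723.

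Promyelocyte-like cells were compared with immature cells in the 4 libraries that had both. Camp was at 7548, 1686, 702 and 1415 CPM in promyelocyte-like cells of NEJ634, NEJ709, NEJ723 and NEJ687, 6.52-fold to 67.1-fold below immature cells. Part of the cells carried most of these levels, 22.5% of them in NEJ634 and a smaller share in the other libraries. Cells that gave at least 1% of their UMIs to Camp numbered 159 of 706, 2 of 38, 4 of 140 and 3 of 133, and held 84.0%, 60.4%, 79.4% and 74.3% of the Camp UMIs of the class. Without them Camp was at 1521, 696, 149 and 370 CPM, below the low-UMI level of 1907, 5343, 365 and 1087 CPM in each library. The cells set aside were picked by their Camp share, so a fall without them was built in. Camp in the whole class was below barcodes of 10 to 99 UMIs in NEJ709, NEJ723 and NEJ687, which held 5713, 4079 and 2803 CPM. Ltf was at 294, 36.1, 2.71 and 28.3 CPM, and Mmp9 at 27.1, 6.23, 2.32 and 3.18 CPM. Every member was higher in immature cells in every library by the rule except Fcnb in NEJ709, which made 35 of 36 pairs, where 12.7%, 14.1%, 16.9% and 16.4% of all genes tested were higher. Fcnb stood out as the member that was nearest to its immature level, at 369, 332, 104 and 151 CPM, with ratios of 2.18 (1.97 to 2.40), 1.78 (1.54 to 2.05), 4.25 (3.72 to 4.87) and 3.34 (2.99 to 3.74). In NEJ634, markers of hepatocytes, lymphocytes and endothelial cells stood in this class at 27.9% of their share in low-UMI barcodes, against 3.06% to 7.05% in the promyelocyte-like cells of the other 3 libraries. Without barcodes seen in another library 3 libraries remained, with 25 of 27 pairs.

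Immature cells with UMIs of cell-cycle genes differed from the rest of their class in Fcnb, Mmp8 and Mmp9. Cells were split by whether Mki67, Top2a, Ccnb1, Cdk1, Birc5 and Ube2c together reached 0.1% of their UMIs, which gave 33 and 69, 9 and 25, 29 and 74, 78 and 253, and 107 and 454 cells above and below the limit in the 5 libraries. Within a factor of 2 of this limit lay 16, 8, 18, 34 and 58 cells, so the split is a range and not a cell type. Cells above the limit were deeper, at medians of 5905 to 19095 UMIs against 2549 to 7990 UMIs, and the part of depth was not tested.

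Mmp8 was at 17.5 CPM in cells with cell-cycle UMIs and at 901 CPM in the other immature cells of NEJ634, and in the further libraries at 56.1 against 1144, 13.8 against 1161, 45.9 against 786 and 80.1 against 1041 CPM. Mmp9 was at 109 against 997, 74.8 against 763, 75.9 against 1159, 103 against 1160 and 111 against 1139 CPM. Both were lower in cells with cell-cycle UMIs in 5 of 5 libraries and the groups of libraries did not overlap, where 12.5%, 2.33%, 10.6%, 10.7% and 13.1% of all genes were lower. Fcnb went the opposite way, at 1173 against 420, 861 against 381, 949 against 260, 763 against 201 and 957 against 268 CPM, higher in 5 of 5 libraries, where 16.0%, 4.42%, 18.8%, 16.7% and 19.0% of all genes were higher. Chil3 was higher in 2 libraries, and Camp, Ngp, Ltf, Lcn2 and Cd177 passed the rule in neither direction in any of the 5. Within that 2-fold range Camp was at ratios of 1.21 to 1.57 and Ltf at 0.594 to 0.785. With the limit at 0.05%, Fcnb, Mmp8 and Mmp9 passed in the same directions in 5 of 5 libraries. With the limit at 0.2%, Fcnb passed in 3 of 4 libraries and Mmp8 and Mmp9 in 4 of 4.

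**Figure D4:**
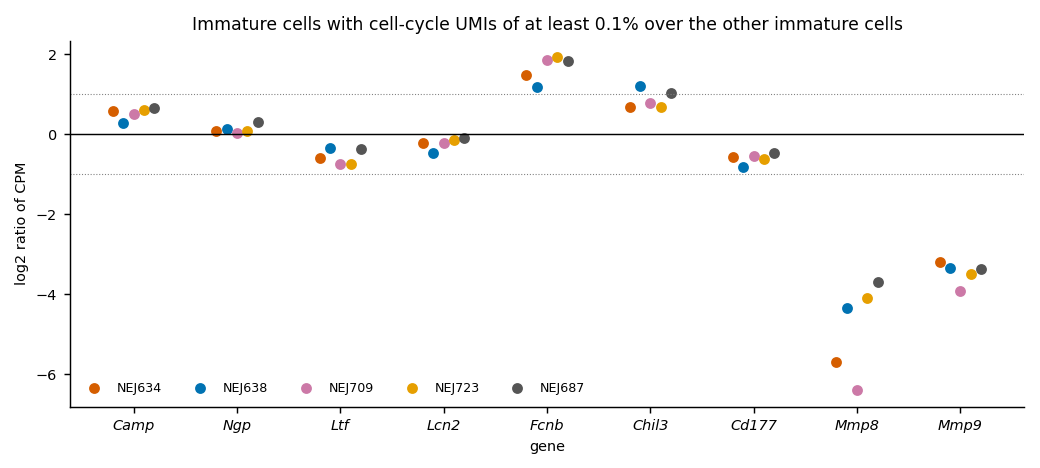
Log2 ratio of each member's CPM in immature cells with at least 0.1% cell-cycle UMIs to its CPM in the other immature cells, with 1 point per library, a solid line at no difference and dotted lines at 2-fold. Mmp8 and Mmp9 lay below the lower dotted line and Fcnb above the upper one in all 5 libraries, while Camp, Ngp, Ltf, Lcn2 and Cd177 lay within 2-fold.

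Finer clusters of the immature cells, again made without the members, set out the same genes in an order. In NEJ687, ordered by rising mature markers, sub-clusters with at least 20 cells, of 36, 75, 203, 28, 28 and 186 cells, had Fcnb at 1827, 739, 256, 77.0, 27.2 and 1.30 CPM. Mmp8 in the same order was at 14.5, 32.5, 570, 760, 1217 and 2051 CPM, and Mmp9 at 8.29, 94.2, 856, 693, 1516 and 1880 CPM. Fcnb was thus highest where the metalloproteinases were lowest. That sub-cluster also held the promyelocyte markers at 6726 CPM, beside 6272 CPM of its immature markers. The other 5 held promyelocyte markers at 4.81 to 252 CPM, and their part in the levels of the first was not tested. The last sub-cluster, of 186 cells, held the mature markers at 39794 CPM beside 10007 CPM of its immature markers. It was part of the immature class by clustering, and its part in the Mmp8 and Mmp9 levels of that class was not tested. Camp, at 85127, 73348, 63970, 23491, 47047 and 20555 CPM, was highest in the early sub-clusters but present in all. Ltf, at 2577, 6395, 8632, 3685, 8640 and 4980 CPM, was highest in the third and the fifth sub-clusters and lower in the fourth, which had 28 cells, and Chil3 peaked in the second sub-cluster, at 9785 CPM.

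NEJ723 had sub-clusters of 22, 62, 159 and 56 cells, of which the first pair could not be ordered by mature markers, at 2533 and 2540 CPM, but differed in promyelocyte markers, at 5287 and 550 CPM. Fcnb was at 1290, 665, 117 and 0 CPM, Mmp8 at 37.7, 30.9, 736 and 1746 CPM, and Mmp9 at 72.5, 70.6, 1171 and 2415 CPM. The last of these sub-clusters, of 56 cells, held the mature markers at 34937 CPM beside 8865 CPM of its immature markers. Ltf, at 1887, 3548, 6138 and 2373 CPM, peaked in the third sub-cluster, and Camp, at 56460, 62939, 43409 and 11346 CPM, in the earlier sub-clusters. The cell-cycle genes summed to 1365, 2616, 81.6 and 58.5 CPM, and in this library the step up in Mmp8 and Mmp9 lay beside the step down in these genes. In NEJ687 they summed to 1611, 2685, 86.6, 544, 27.2 and 84.7 CPM, and from the third to the fourth sub-cluster they and Mmp8 were both higher. Mature markers set the order and are counted over other genes than the members, but all sub-clusters come from the same cells, and their differences are a description.

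**Figure D5:**
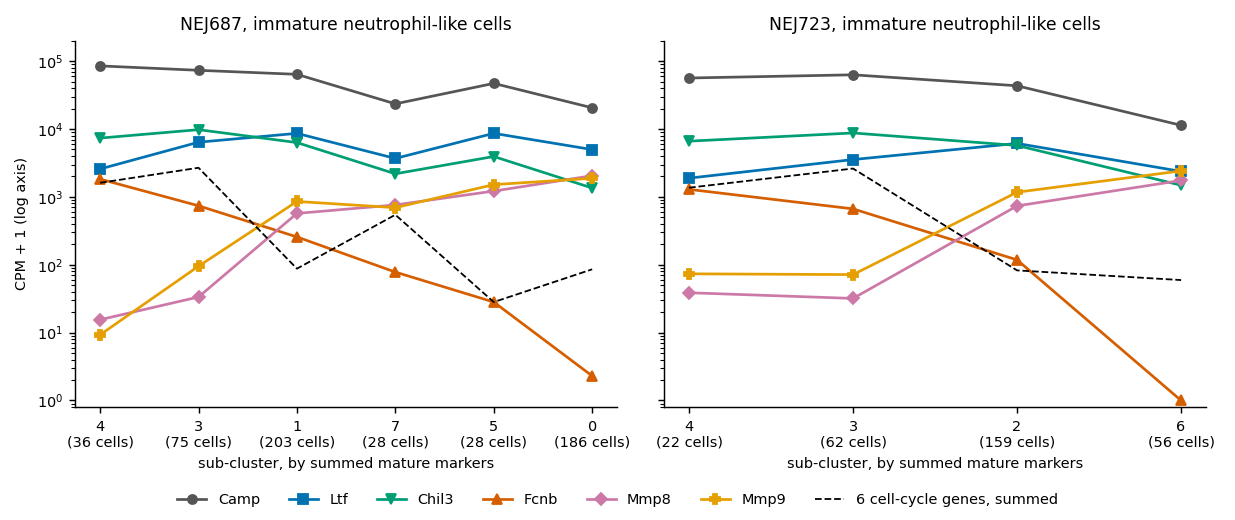
Levels of Camp, Ltf, Chil3, Fcnb, Mmp8 and Mmp9 as CPM + 1 on a log axis in sub-clusters of immature cells of NEJ687 and NEJ723, ordered from left to right by the summed CPM of mature markers, with the 6 cell-cycle genes summed as a dashed line. Fcnb was highest at the left (1827 and 1290 CPM) and Mmp8 at the right (2051 and 1746 CPM) in both libraries.

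The opposite course of Fcnb and Mmp8 was also seen cell by cell. Of immature cells with an Fcnb UMI, 19.1%, 22.2%, 28.0%, 22.5% and 19.1% had an Mmp8 UMI. Of immature cells with no Fcnb UMI, 70.9%, 76.0%, 84.9%, 86.8% and 84.1% did. The cells with Fcnb were the deeper ones, at a median of 10132 against 4546 UMIs in NEJ687. For Mmp9 the shares were 40.4%, 33.3%, 50%, 48.6% and 43.2% against 87.3%, 68.0%, 94.3%, 93.7% and 93.1%.

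Outside the granulocyte stages, 2 questions were asked of each class, whether the member was above the low-UMI level and whether its ratio to Camp was above that of low-UMI barcodes. Ratios to Camp differed between low-UMI barcodes of different depth, so both questions were also asked against barcodes of 10 to 99 UMIs, a choice made after seeing the data. Of 36 passes outside the stages, 13 also passed there, 7 for Chil3 and 5 for Mmp8 in monocyte-like cells and 1 for Fcnb. No share of all genes passing against barcodes of 10 to 99 UMIs is given here, so these 13 have no background rate beside them. A granulocyte stage held the highest level of the member in 54 of 63 pairs of a member and a library, with intervals apart from every class outside them, where 7.37%, 4.19%, 9.76%, 14.0%, 7.09%, 7.07% and 8.63% of all genes did so in NEJ634, NEJ638, NEJ709, NEJ723, NEJ654, NEJ677 and NEJ687. All 9 exceptions were in NEJ654 and NEJ677, where immature cells numbered 0 and 2 and did not enter.

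Chil3 in monocyte-like cells passed both questions in 7 of 7 libraries, as did 25.5%, 40.7%, 24.3%, 36.8%, 5.78%, 28.8% and 25.6% of all genes seen in these cells, in the order of libraries just given. It also passed in 7 of 7 against barcodes of 10 to 99 UMIs, which held 6.29 to 608 CPM. In that order it was at 851, 407, 2949, 4435, 501, 422 and 2112 CPM, where low-UMI barcodes held 252, 4.42, 577, 108, 1.32, 2.09 and 140 CPM. Monocyte-like cells of NEJ654 and NEJ677 gave 311 and 359 Chil3 UMIs and no Camp UMI. Mature cells of these 2 libraries gave no Chil3 UMI, so that monocyte-like cells held the highest level there. In the other 5 libraries immature cells lay above monocyte-like cells, most closely in NEJ723, at 6298 against 4435 CPM.

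Mmp8 in monocyte-like cells was at 117, 109, 162, 288, 43.5, 36.4 and 247 CPM in the same order, above low-UMI barcodes in level and in ratio to Camp in 7 of 7 libraries, and in 5 against barcodes of 10 to 99 UMIs, all but NEJ634 and NEJ677. Each of these levels was below that of mature cells of the same library. Cd177 in monocyte-like cells ranged from 4.21 CPM in NEJ723 to 48.2 (34.6 to 65.4) CPM in NEJ677 and passed both questions in 3 libraries, among them NEJ654 at 46.7 (31.3 to 67.1) CPM, where mature cells were at 35.2 (16.9 to 64.7) CPM with overlapping intervals. Against barcodes of 10 to 99 UMIs Cd177 passed in 0 libraries. In NEJ654 and NEJ677 those barcodes held only 158878 and 104654 UMIs in all, with Cd177 at 6.29 and 0 CPM. In NEJ677 they held Mmp8 at 0 CPM as well. A background this small cannot decide such low levels, so failing there does not show that expression is absent. Fcnb passed both in monocyte-like cells of NEJ723 and NEJ687, at 18.9 and 27.3 CPM, and of these only NEJ687 passed against barcodes of 10 to 99 UMIs.

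The remaining passes did not hold against barcodes of 10 to 99 UMIs, and no expression outside the stages is read from them. In NEJ654 and NEJ677 this background was small, as given above, so failing there does not show absence either. Failing in other libraries does not show it, since cells can lie far below such barcodes. Lcn2 was at 11.2 CPM in T or NK-like cells of NEJ687, where those barcodes held 895 CPM. Hepatocyte-lineage-like cells of NEJ638 gave 143 Lcn2 and 1 Camp UMI, and monocyte-like cells of NEJ687 1731 and 50. Basophil or mast-like cells of NEJ634 gave 671 and 1941. Macrophage-like cells of NEJ677 gave 109 Mmp9 UMIs and no Camp UMI. The source of these UMIs was not tested. Lcn2 in monocyte-like cells of NEJ723 and NEJ687 was at 512 and 801 CPM, above 167 and 383 CPM in the ranked low-UMI barcodes but below 877 and 895 CPM in those of 10 to 99 UMIs. In hepatocyte-lineage-like cells of NEJ638 and NEJ654 it was at 55.5 (46.8 to 65.4) and 41.4 (31.4 to 53.5) CPM, against 17.3 and 12.1 CPM in the former and 163 and 31.5 CPM in the latter barcodes. Basophil or mast-like cells of NEJ723 held Ngp at 369 CPM and Lcn2 at 273 CPM, below 2370 and 877 CPM in barcodes of 10 to 99 UMIs, and those of NEJ634 held them at 4401 and 1436 CPM, above the level there but not above the ratio to Camp. Mmp9 in macrophage-like cells of NEJ638, NEJ654 and NEJ677 was at 25.2, 25.8 and 50 CPM, where barcodes of 10 to 99 UMIs held 33.5, 18.9 and 47.8 CPM and mature cells 793, 1188 and 1413 CPM. Passing against the ranked low-UMI barcodes was common among all genes. In macrophage-like cells 17.3%, 34.2%, 17.1%, 22.8%, 32.3%, 34.3% and 21.6% of genes passed, in the order of libraries given above. In hepatocyte-lineage-like cells 27.6%, 50.3%, 17.4%, 6.48%, 13.4% and 25.4% did in NEJ634, NEJ638, NEJ709, NEJ654, NEJ677 and NEJ687, and in basophil or mast-like cells 0.980%, 22.8%, 27.5% and 16.7% in NEJ634, NEJ638, NEJ723 and NEJ687. T or NK-like cells held the 9 members at 700 and 1771 CPM in NEJ634 and NEJ709, below the low-UMI barcodes of these libraries, and at 10.0 to 96.7 CPM in the other 5. Other classes of NEJ634 held far more. There the members summed to 11234 CPM in basophil or mast-like and 10369 CPM in conventional dendritic-like cells. Plasmacytoid dendritic-like cells held 8025 and macrophage-like cells 4739 CPM, beside 11710 CPM in mature and 12851 CPM in promyelocyte-like cells.

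Other genes of granule proteins did not all follow the members from immature to mature cells. Of a list of 13, among them the oxidase subunits Cybb and Cyba, the integrin chains Itgam and Itgb2, and Lyz2, Olfm4 and Pglyrp1, 10 or 11 could be tested in a library. Cybb, the catalytic subunit of the phagocyte oxidase, was higher in immature than in mature cells in 5 of 5 libraries, at 1164 to 1488 CPM against 125 to 351 CPM. Slc11a1, a metal transporter of phagocyte vesicles, was lower in 5 of 5, at 0 to 14.8 CPM against 62.1 to 205 CPM. The median log2 ratio of the list was 0.58, 0.57, 0.30, 0.38 and 0.20, nearer to that of all genes than to that of the members. Against promyelocyte-like cells the list was mostly higher in immature cells, in the direction of the members but with smaller median ratios. In NEJ634, NEJ709, NEJ723 and NEJ687, 9, 10, 10 and 10 of 10 tested genes of the list were higher. Of all genes tested, 12.7%, 14.1%, 16.9% and 16.4% were higher there. The median log2 ratios of the list were 2.02, 3.32, 3.59 and 3.42, below the 3.55, 5.82, 6.07 and 5.90 of the members. Those of all genes were −0.52, −0.77, −0.71 and −1.10. The difference between the list and the members was not tested. Of 7 factors of granulocyte differentiation, Cebpe was higher in immature cells in 5 of 5 libraries, at 252 to 470 CPM against 28.8 to 163 CPM, and also higher than in promyelocyte-like cells in 4 of 4, at 294 to 470 CPM against 81.2 to 113 CPM. Cebpb was lower in 5 of 5, at 473 to 947 CPM against 2253 to 3507 CPM.

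Across 82 points, each 1 class in 1 library with at least 20 cells, genes of at least 100 CPM in 1 point were ranked by the Pearson correlation of log2(CPM + 1) with each member, as a description, since points of 1 library share its free RNA and depth. Among 5855 genes the nearest to Camp was S100a9 (0.86), to Ngp S100a9 (0.92), to Lcn2 S100a9 (0.94) and to Ltf Itgb2l (0.89). S100a8 and S100a9 encode the abundant cytosolic protein calprotectin. The nearest to Fcnb was Elane (0.87), the elastase of primary granules. By rank correlation Prtn3, another primary granule protease, was nearest to Fcnb (0.79) and also among the nearest to Chil3 (0.80). Chil3 was nearest to Ifitm6 (0.85), Cd177 to Slfn4 (0.89) with Cebpe at 0.88, Mmp8 to Trem1 (0.93) and Mmp9 to Ankrd22 (0.89). Itgb2l, Elane, Prtn3, Ifitm6, Trem1 and Ankrd22 were used to name the stages. Among the members, Camp and Ngp were most alike (0.98) and Fcnb and Mmp9 least (0.41).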

How the data were processed

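The authors captured single cells of 7 mouse liver digests with 10x Genomics 3′ chemistry and deposited, per library, unfiltered counts of UMIs per gene and barcode. The submitters' processing notes and the study's methods name Cell Ranger 6.0, while the matrix headers name another release. The genome build is not given in the sources used here, and coordinates are from GENCODE M21, GRCm38. The methods state that introns were included in the counting, which adds UMIs of unspliced RNA. Whether the deposited matrices were counted in this way was not tested. A gene and its paralog can share reads.

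Barcodes with cells were called from the deposited counts by 2 rules (a UMI limit at the 99th percentile over 10 among the richest 3000 barcodes, then departure from a low-UMI profile, 10000 draws, adjusted p of 0.01), with more than 500 UMIs and at most 20% mitochondrial UMIs. Doublets were removed at 0.8% per 1000 cells (9097 barcodes), as were 2032 barcodes kept in more than 1 library. Cells were clustered with scanpy 1.11.5 (2000 variable genes without the 9 members, 40 components, 15 neighbours, Leiden resolution 1). Clusters were named from 128 markers where the markers of 1 list averaged 1.5 or more in log2 fold, led the next list by 1 and included at least 3 that were up, and left unnamed where a second class outside the granulocyte stages averaged 1 or more with 3 markers up (plasma cell markers were allowed in B cell clusters). This named 38159 of 71403 cells in 48 clusters and left 33244 unnamed.

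UMIs were summed per class and library with at least 20 cells. Promyelocyte-like, immature and mature cells, and all named classes, were compared within each library, and a gene counted as higher at a ratio of at least 2 with exact 95% intervals apart, among genes of at least 50 CPM. In counts simulated for NEJ687, immature against mature, over 1920 genes, the rule recovered 200 of 200 genes changed 3-fold. It recovered 3 of 200 changed 2-fold and called 0 of 1720 unchanged genes. These counts held counting error alone, and rescaling to a fixed total left genes raised 2-fold below a 2-fold ratio. Cells of a class were uneven in the data, so the simulation does not measure the error of the rule here. By its limit the rule passes over changes of less than 2-fold. No p-value was made, since the labels give 0 groups and cells are not replicates. The members, lists and markers named were chosen with earlier results of these data known. Named genes were the 9 members, genes of 2 fixed lists (13 other granule genes, 7 factors) that were at least 2-fold apart in every library, and the genes most like each member.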

Additional observations from a re-analysis of the deposited data

Results flagged for a closer look

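Member UMIs were also read in barcodes that entered no comparison, and every value here is given with no explanation. Barcodes of at least 500 UMIs that were not called cells held the 9 genes at 11429 CPM in NEJ709, 6532 in NEJ634, 903 in NEJ723, 707 in NEJ687, 48.1 in NEJ638, 19.7 in NEJ654 and 4.10 in NEJ677, each above what a count of 0 would allow. Those of NEJ634 and NEJ709 lay within a factor of 2 of the analysed cells of the same library, and those of NEJ687, NEJ638 and NEJ677 lay more than 10-fold below.

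Barcodes kept as cells in more than 1 library, which were left out, held the 9 genes at 10354 CPM in NEJ709, 5467 in NEJ687, 4848 in NEJ634, 2046 in NEJ654, 1886 in NEJ677, 1141 in NEJ723 and 85.2 in NEJ638. In NEJ654 and NEJ677 these levels lay far above the 73.9 and 72.5 CPM of the analysed cells, and in the other 5 libraries they lay below those of the analysed cells.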

How the results depend on the processing

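Stages were compared within each library, which pairs them, and no test over libraries was run, since the labels give 0 groups and no replicate numbers. Of 741 values under alternatives, 465 stayed within the limits set for their kind and 276 moved. Of 280 levels over analysed cells 172 left their counting interval, which is narrow at these depths, and 40 moved by more than 1.5 times, all of them with shared barcodes kept, with named classes only or under the rule of the 99th percentile alone. Of 144 shares of cells with a UMI 81 moved, 56 of them by more than 1.5 times, all with 1000 UMIs after thinning in place of 500. Of 270 counts of libraries for single members under 17 settings, 251 stayed within 1.5 times the reported count and 19 moved, which were mostly counts of 0 or 1 for Mmp8, counts for Fcnb against promyelocyte-like cells, and counts under the rule of the 99th percentile alone. Under that rule 2 libraries kept both stages, and 13 of 18 pairs were higher in immature than in mature cells. With low-UMI barcodes of 10 to 99 UMIs as the background, 3 of 7 libraries had cells above it in place of 7, and 13 of 36 passes outside the granulocyte stages remained. With a cell-cycle limit of 0.2%, chosen after seeing the data, 4 libraries entered and 3 of 36 pairs were higher in cells with cell-cycle UMIs, all of them Fcnb, while Mmp8 and Mmp9 were lower in 4 of 4. Keeping every barcode over 500 UMIs, or clustering at resolution 0.5, gave no class named immature or mature, so no stage value exists there. Leaving out barcodes with over 100 UMIs in another library was also chosen after seeing the data. Of 30 places, the 3 genes most like each member and their sum with repeats, 26 remained without NEJ709 and 21 with rank correlation, which left out Itgb2l for Ltf, Slfn4 for Cd177 and Ankrd22 for Mmp9. Depth limits low members most: NEJ638 had 34 immature cells and NEJ709 38 promyelocyte-like cells.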

Other observations

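Barcodes that were not cells in a library but were cells of another one, at 10 or more and under 500 UMIs, held the 9 genes at 9051 CPM in NEJ723, 6117 in NEJ709, 4806 in NEJ677, 4151 in NEJ654, 3556 in NEJ638, 1588 in NEJ634 and 1550 in NEJ687. Camp in them was at 1660 and 1937 CPM in NEJ654 and NEJ677, where mature neutrophil-like cells were at 0 and 3.41 CPM. Other barcodes of 100 or more and under 500 UMIs held the 9 genes at 22.3 and 21.8 CPM in these 2 libraries.

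Barcodes of 1 to 9 UMIs held the 9 genes at 11980 CPM in NEJ709, 9135 in NEJ687, 6595 in NEJ634, 3895 in NEJ723, 837 in NEJ638, 350 in NEJ677 and 319 in NEJ654. This is above the level of barcodes of 100 or more and under 500 UMIs in all 7 libraries.

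The 2 immature neutrophil-like cells of NEJ677 held Camp at 22002 CPM and the 9 genes at 69479 (62992 to 76452) CPM, and 0 of the 2 had a barcode with over 100 UMIs in another library. They held 21.7% of all member UMIs among the 7125 analysed cells of that library.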
